A study of Mus musculus with 24 samples.

Results

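The genes described here are 10 genes of glucose use in skeletal muscle. Slc2a4 encodes the insulin-responsive glucose transporter, Hk2, Pfkm, Aldoa, Pgam2, Eno3, Pkm and Ldha encode enzymes of glycolysis, and Gys1 and Pygm encode the muscle enzymes that make and break down glycogen. They were taken by gene symbol from a table of 18669 genes in quadriceps femoris muscle. Of those genes, 13754 passed the filter on low counts and were tested, and all 10 members were among them. Gapdh, the glycolytic enzyme between Aldoa and Pgam2 in the pathway, was left out because the table lists it with 0 counts in all 24 libraries. Its transcript matches the mouse genome at 40 places with no more than 2% of bases differing and 50% or more of its length aligned, whereas none of the 10 members has such a copy. With up to 10% of bases differing, 7 copies were found for Aldoa, 4 for Pkm and 14 for Ldha, and reads of these genes may have been lost or shared in the counting.

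Messenger RNA of 24 mice of 3 genotypes was sequenced 4 h after 1 of 4 treatments, with 2 mice in each of the 12 groups. Wild type and R6/2 mice were 12 weeks old, whereas Hsf1-/- mice were 10 weeks old in the HS experiment and 8 weeks old in the HSP990 experiment, so that age and the loss of Hsf1 cannot be told apart. The labels place all mice on a CBA x C57BL/6 F1 background. R6/2 mice carry a transgene for a fragment of mutant human huntingtin and are a model of Huntington's disease with early onset. Hsf1-/- mice lack the transcription factor that drives the heat shock response. A heating pad brought the core of HS mice to 41.5 °C for 15 min, and for control mice the pad was set to 36.9 °C for 21 min, both under isoflurane. HSP990, an inhibitor of the chaperone HSP90, was given by mouth at 12 mg/kg. Vehicle mice received saline, whereas the drug was suspended in methyl cellulose and saline. Control and vehicle mice are called untreated below.

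Library totals ranged from 22450177 to 46599238 counts. Hsf1 was measured at 21.1 to 29.0 CPM (counts scaled to a common library size) in the 8 Hsf1-/- libraries and at 45.3 to 68.6 CPM in the other 16. The table does not show which part of the gene these counts come from. Counts on Y-linked genes were 0 to 4 in wild type and R6/2 mice of the HS experiment and at least 3916 in every other library. Within an experiment wild type and R6/2 mice were therefore alike in this respect, whereas Hsf1-/- and wild type mice of the HS experiment were not. In the HS experiment this difference and the Hsf1 genotype cannot be told apart. All 10 skeletal muscle markers checked, among them Acta1, Ckm and Ttn, were present in every library. Counts of the 20 highest genes made up 14.7 to 21.9% of an R6/2 library but 32.7 to 40.1% of a library from the other genotypes. TMM factors correct library totals for such shifts in composition. They lay between 1.19 and 1.40 for R6/2 and between 0.81 and 0.95 for the other genotypes. Levels below are TMM-scaled CPM. For R6/2 against other mice, counts of called members are also given with library size only.

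Glycolysis splits glucose into pyruvate and yields ATP without oxygen, and fast muscle fibres depend on it for brief, strong contractions. Muscle keeps its own store of glucose as glycogen. Muscle isoforms of several of the enzymes, such as PFKM, PGAM2 and PYGM, are so prominent in this tissue that their inherited loss in humans causes glycogen storage disease with exercise intolerance.

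Untreated R6/2 mice had lower levels than untreated wild type mice of 9 of the 10 members with TMM scaling, and of 8 with library size only, where Pkm was not called and Gys1 was higher. The falls ran from 1.51-fold for Pkm to 4.16-fold for Pgam2. Gys1 was the member that was not called. In this comparison 30.5% of all tested genes were called at an adjusted p below 0.05, and 15.4% were called lower. With library size only 3.06% were called lower, and 8455 of the 13754 tested genes were called higher. The median log2 fold change of the members was -1.43, beside 0.05 for all tested genes. The question the comparison addresses is how basal expression in muscle differs in the disease model. In bulk tissue fewer muscle fibres and less RNA per fibre cannot be told apart. Untreated Hsf1-/- mice gave 0 called members against wild type mice, beside 0.974% of all tested genes, as described further on. They were also younger than wild type mice and, in the HS experiment, differed in Y-linked counts, so they are no like-for-like background.

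Slc2a4, which encodes the transporter GLUT4, was measured at 1035, 1106, 1098 and 1199 CPM in the 4 untreated wild type mice and at 477, 522, 401 and 481 CPM in the 4 untreated R6/2 mice. Every R6/2 value lay below every wild type value. Its log2 fold change was -1.24 (SE 0.10, edgeR adjusted p = 3.8e-07). The gene lies at chr11:69756045-69761690 of mm9 on the minus strand. Hk2, the muscle hexokinase that traps glucose in the cell, was at 652 and 733 CPM in wild type controls and at 1161 and 1053 CPM in wild type vehicle mice. In R6/2 mice it was at 351 and 341 CPM (control) and at 333 and 297 CPM (vehicle). The groups did not overlap, but the wild type mice of the 2 experiments stood apart from each other. The log2 fold change of Hk2 (chr6:82675019-82724448, minus strand) was -1.41 (SE 0.12, edgeR adjusted p = 9.0e-07).

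Pfkm encodes muscle phosphofructokinase, which commits sugar to glycolysis. It was at 3437, 3619, 3835 and 3432 CPM in wild type and at 1266, 1582, 1046 and 1341 CPM in R6/2 mice. The log2 fold change of this gene (chr15:97923020-97962878, plus strand) was -1.46 (SE 0.11, edgeR adjusted p = 3.7e-07). Aldoa, the aldolase of muscle, was at 17589, 19268, 18486 and 16994 CPM in wild type and at 4261, 5639, 3889 and 4846 CPM in R6/2 mice. It is the most abundant member and ranked 6 among all tested genes in wild type muscle. Its log2 fold change (chr7:133938748-133944265, minus strand) was -1.96 (SE 0.13, edgeR adjusted p = 1.3e-07), and the highest R6/2 mouse reached less than any wild type mouse.

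Pgam2 encodes the muscle phosphoglycerate mutase of lower glycolysis. Wild type mice had 691, 735, 713 and 623 CPM, and R6/2 mice had 166, 230, 129 and 149 CPM. This was the largest fall among the members, with a log2 fold change of -2.06 (SE 0.14, edgeR adjusted p = 1.3e-07). Among all tested genes Pgam2 (chr11:5701643-5703736, minus strand) ranked 169 by mean level in wild type and 672 in R6/2 muscle. Eno3, the muscle enolase at the next step, was at 7052, 7347, 6707 and 6058 CPM in wild type and at 2141, 3216, 1688 and 2364 CPM in R6/2 mice. Its log2 fold change (chr11:70470704-70476015, plus strand) was -1.54 (SE 0.13, edgeR adjusted p = 5.4e-07), and the spread among R6/2 mice was wide next to their mean.

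Pkm encodes pyruvate kinase, the last step of glycolysis, and showed the smallest of the called falls. It was at 2051, 2273, 2152 and 1941 CPM in wild type and at 1303, 1644, 1234 and 1401 CPM in R6/2 mice, a log2 fold change of -0.59 (SE 0.09, edgeR adjusted p = 9.7e-05). The table counts the gene as a whole (chr9:59504383-59527182, plus strand), so the M1 and M2 splice forms are not separated. Ldha, the lactate dehydrogenase subunit that turns pyruvate into lactate, was at 2929, 3259, 2301 and 2287 CPM in wild type and at 572, 1064, 532 and 721 CPM in R6/2 mice. The log2 fold change of Ldha (chr7:54096845-54110997, plus strand) was -1.90 (SE 0.17, edgeR adjusted p = 1.0e-06). Both wild type vehicle mice lay below both wild type controls, and all R6/2 mice lay lower still.

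The genes of glycogen metabolism differed from each other. Pygm, the muscle phosphorylase that releases glucose from glycogen, was at 12814, 13029, 12848 and 12488 CPM in wild type and at 5416, 6514, 4543 and 5978 CPM in R6/2 mice. Its log2 fold change (chr19:6384399-6398459, plus strand) was -1.19 (SE 0.11, edgeR adjusted p = 1.5e-06). Gys1, the muscle glycogen synthase, was at 743, 921, 959 and 923 CPM in wild type and at 851, 978, 621 and 767 CPM in R6/2 mice. The ranges overlapped, and the log2 fold change of Gys1 (chr7:52690214-52711989, plus strand) was -0.15 (SE 0.10, edgeR adjusted p = 0.26). Ruvbl2 overlaps Gys1 on the opposite strand, Senp1 overlaps Pfkm and the non-coding Gm17034 overlaps Hk2. Whether the counting used strand is not given in the sources used here.

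**Figure D1:**
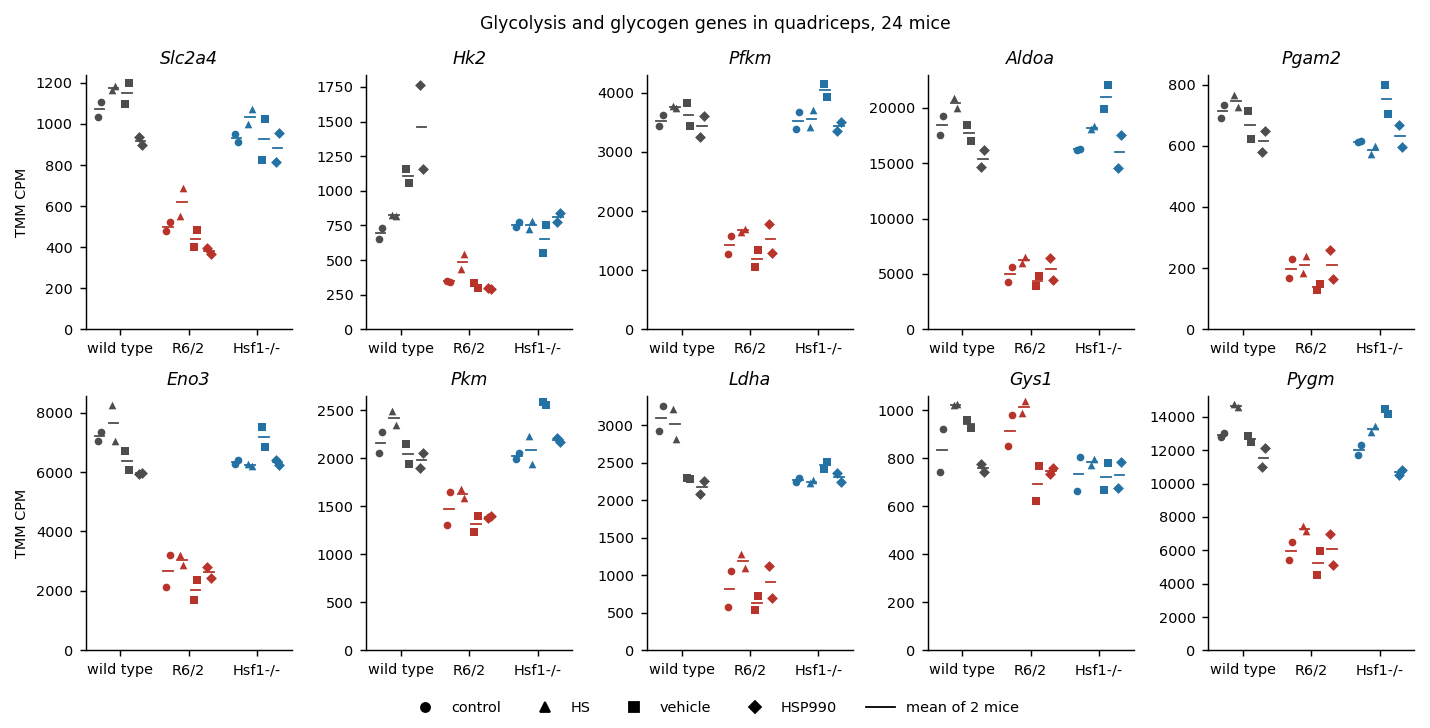
TMM-scaled CPM (y axis, linear from 0) of the 10 members in each of the 24 mice, by genotype (x axis and colour) and treatment (symbol), with a short line for the mean of 2 mice. The 8 R6/2 mice lie below all 8 wild type mice in every panel but that of Gys1 on this scale, and the Hsf1-/- mice overlap the wild type mice in every panel.

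Across all 8 mice of a genotype, treated mice included, the R6/2 libraries lay below all wild type libraries for 9 of the 10 members. This was the case for 4.9% of all tested genes. Slc2a4 ranged from 897 to 1199 CPM (median 1102) in wild type and from 367 to 690 CPM (median 479) in R6/2 mice. Aldoa ranged from 14656 to 20939 CPM (median 18037) in wild type and from 3889 to 6496 CPM (median 5243) in R6/2 mice. For Pkm the gap was narrower, with 1900 to 2494 CPM in wild type and 1234 to 1679 CPM in R6/2 mice. Gys1 ranged from 741 to 1025 CPM in wild type and from 621 to 1039 CPM in R6/2 mice.

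The size of the falls depended on how libraries were scaled, and the direction did for Pkm and Gys1. Scaled by library size alone, 64.5% of all tested genes were called and 3.06% were called lower, since the median of all genes moved to a log2 fold change of 0.66. On this scale 8 members were still lower. Pgam2 had a log2 fold change of -1.45 (SE 0.12, edgeR adjusted p = 1.1e-07), Aldoa of -1.36 (SE 0.11, edgeR adjusted p = 9.7e-08) and Ldha of -1.29 (SE 0.15, edgeR adjusted p = 2.4e-06). Slc2a4, Hk2, Pfkm, Eno3 and Pygm lay between -0.94 and -0.59. Pkm was at 0.01 (SE 0.08, edgeR adjusted p = 0.91), and Gys1 was higher in R6/2 mice at 0.45 (SE 0.10, edgeR adjusted p = 0.00051). For 6 of the 10 members, and 0.676% of all tested genes, the 8 R6/2 libraries lay below all wild type libraries on this scale. On the same library-size scale, the share of all counts that fell on the 10 members together was 3.83 to 4.68% (median 4.41%) in wild type, 2.01 to 2.95% (median 2.63%) in R6/2 and 3.92 to 4.71% (median 4.14%) in Hsf1-/- libraries.

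**Figure D2:**
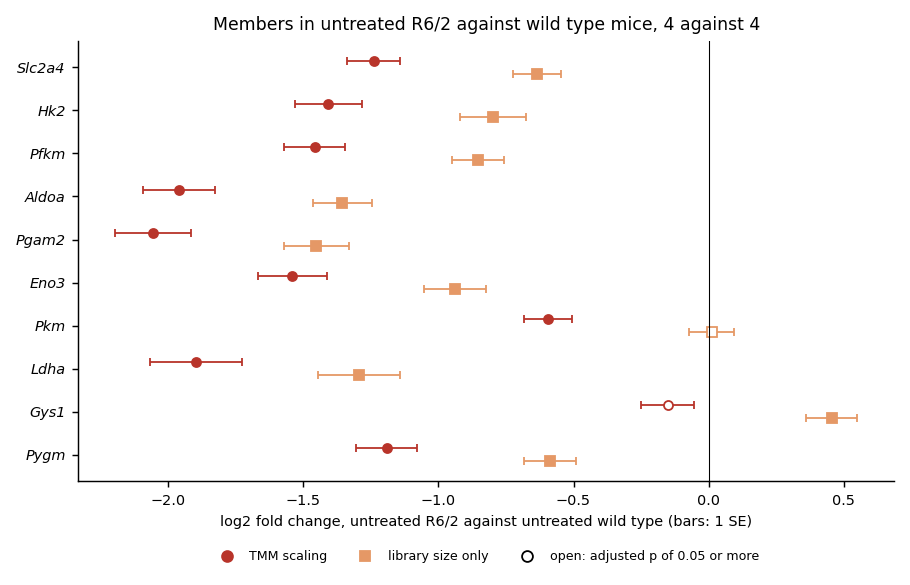
Log2 fold change (x axis) of each member (y axis) in 4 untreated R6/2 against 4 untreated wild type mice, with TMM scaling (circles) and with library size only (squares). Bars are 1 SE and open symbols had an adjusted p of 0.05 or more: all members lie further right with library size only, where Pkm sits at 0.01 and Gys1 at 0.45.

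The members were also compared with Gys1 inside each library, which involves no scaling factor. Gys1 was chosen for this after its values were seen, as the member that had not fallen, so lower ratios of the others follow in part from that choice and are a description only. The log2 ratio of Aldoa to Gys1 counts was 4.20 to 4.57 (median 4.32) in the 8 wild type mice and 2.32 to 3.14 (median 2.62) in the 8 R6/2 mice. For Pgam2 it was -0.57 to -0.10 in wild type and -2.44 to -1.51 in R6/2 mice, without overlap. The ratio of Pkm to Gys1 came closest to overlap, with 1.07 to 1.47 in wild type and 0.60 to 0.99 in R6/2 mice. In all, 9 of the 9 other members had every R6/2 mouse below every wild type mouse relative to Gys1. The share among all tested genes was 2.73%, and nothing is read from the comparison of both. The ratio of Aldoa to Pkm differed as well, with 2.95 to 3.13 in wild type, 1.66 to 2.23 in R6/2 and 2.72 to 3.24 in Hsf1-/- mice. The members thus changed by unequal amounts, and these ratios do not say which of 2 genes moved.

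**Figure D3:**
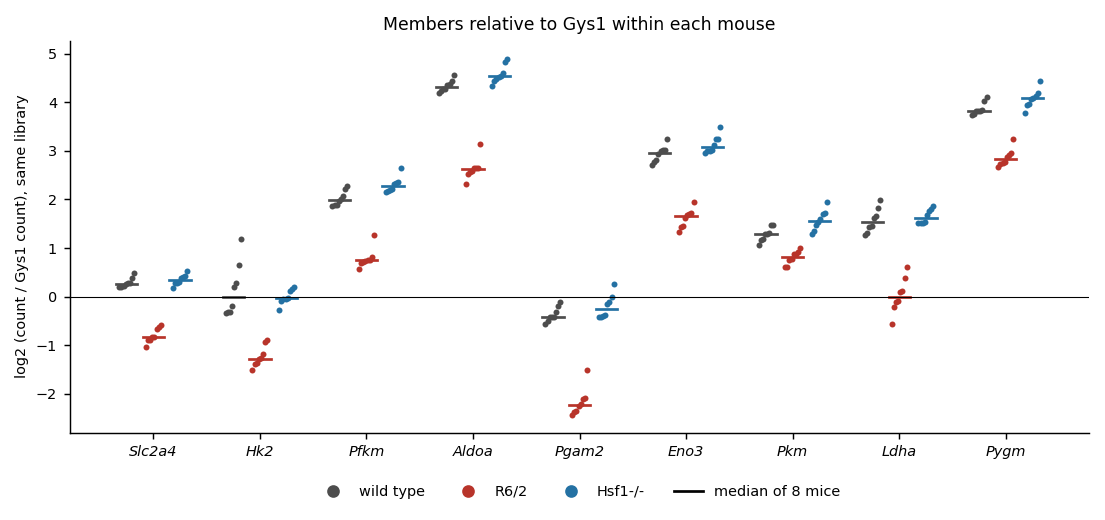
Log2 of the ratio of each member's count to the Gys1 count of the same library (y axis) in 8 mice of each genotype (points, coloured by genotype; lines are medians). R6/2 mice lie below wild type mice for all 9 genes, by the least for Pkm (medians 0.82 and 1.29).

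The isoforms that muscle favours were set against their counterparts of other tissues in the same way. The log2 ratio of Hk2 to Hk1 was 6.04 to 7.66 (median 6.64) in wild type and 4.34 to 5.24 (median 4.72) in R6/2 mice, without overlap. Slc2a4 to Slc2a1 was 5.17 to 6.36 in wild type and 3.79 to 4.99 in R6/2 mice, again without overlap. Pygm to Pygb was 9.42 to 10.7 in wild type and 8.09 to 9.35 in R6/2 mice. Pgam2 to Pgam1 was 8.96 to 9.90 in wild type and 7.58 to 8.90 in R6/2 mice, without overlap but by a narrow gap. Pgam1 was near the floor, at 1.08 ± 0.25 CPM in untreated wild type and 0.58 ± 0.16 CPM in untreated R6/2 mice (SD, n = 4). Counting error in it thus weighs on this ratio. The ratios of Eno3 to Eno1, Pfkm to Pfkl and Ldha to Ldhb overlapped between the genotypes, with medians of 8.76 and 7.87, 7.32 and 6.02, and 4.09 and 2.92 in wild type and R6/2 mice. The muscle isoform had the higher count in every library. Near-identical copies were not counted for the counterparts, whose reads may have been lost or shared in the counting.

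With TMM scaling the fall was present in each experiment and under each treatment. Among controls of the HS experiment 9 members were called lower, beside 6.94% of all tested genes, with log2 fold changes from -1.92 (Ldha) to -0.55 (Pkm). Scaling by library size left 8 lower, Pkm was at -0.014 (edgeR adjusted p = 0.93) and Gys1 was called higher at 0.68 (edgeR adjusted p = 0.00091). On that scale 5756 of all 13754 tested genes were called higher and 254 lower, with a median log2 fold change of 0.55. Among vehicle mice of the HSP990 experiment 10 members were called lower, beside 10.5% of all tested genes. There Pgam2 had a log2 fold change of -2.27 (SE 0.20, edgeR adjusted p = 6.2e-06) and Gys1 of -0.44 (SE 0.14, edgeR adjusted p = 0.035). On the library-size scale 8 were lower there, and neither Gys1 at 0.23 (edgeR adjusted p = 0.15) nor Pkm at 0.036 (edgeR adjusted p = 0.81) was called, so that the direction of both turned. Among all tested genes 7363 were called higher and 289 lower there on that scale, with a median of 0.74. In controls Gys1 was at 0.14 with TMM (SE 0.14, edgeR adjusted p = 0.58). A test of whether the genotype difference itself differed between the experiments called 0% of the tested genes with edgeR, of which 727 had an unadjusted p below 0.05. Hk2 came closest among the members, with -1.001 in controls and -1.81 in vehicle mice, a difference of -0.81 (SE 0.24, unadjusted p = 0.0041, edgeR adjusted p = 0.75).

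HS-treated R6/2 mice had lower levels of 9 members than HS-treated wild type mice, beside 6.33% of all tested genes. Aldoa stood at -1.72 and Pgam2 at -1.82 on the log2 scale, and Hk2 at -0.75 (SE 0.17, edgeR adjusted p = 0.01). On the library-size scale 7 were lower, Gys1 was called higher at 0.55 (edgeR adjusted p = 0.0032), and the calls of Hk2 (-0.19, edgeR adjusted p = 0.39) and Pkm (edgeR adjusted p = 1) were lost. The median of all tested genes was 0.59 on that scale, above the value of Gys1, with 6231 genes called higher and 243 lower. The call of Hk2 was lost without wild type HS replicate 1 (adjusted p = 0.066), without wild type HS replicate 2 (0.053) and without R6/2 HS replicate 1 (0.10), and that of Pkm without wild type HS replicate 1 (0.068). HSP990-treated R6/2 mice had lower levels of 9 members than HSP990-treated wild type mice, beside 5.29% of all tested genes. Hk2 was furthest apart there, at -2.32 (SE 0.18, edgeR adjusted p = 7.1e-06). Scaling by library size left 8 lower, Gys1 was called higher at 0.54 (edgeR adjusted p = 0.004) and Pkm was at 0.053 (edgeR adjusted p = 0.75). With 5833 of all tested genes called higher and 205 lower on that scale, their median was 0.55, so that Gys1 lay close to it. The call of Pkm (-0.51, edgeR adjusted p = 0.016) was lost whichever of the 4 mice was left out (adjusted p from 0.064 to 0.098), and that of Ldha without R6/2 HSP990 replicate 2 (0.067). These comparisons were chosen after the data had been seen. Untreated R6/2 mice were also compared with untreated Hsf1-/- mice. The Hsf1-/- mice were younger and, in the HS experiment, differed in Y-linked counts, and neither can be told apart from genotype here. Again 9 members were lower, beside 16.1% of all tested genes, from -2.03 (Pgam2) to -0.71 (Pkm), and Gys1 was at 0.13 (SE 0.10, edgeR adjusted p = 0.33). Without TMM factors 8 were lower, Pkm was at -0.067 (edgeR adjusted p = 0.49) and Gys1 was called higher at 0.77 (edgeR adjusted p = 2.6e-06). Beside these, 8703 of all tested genes were called higher and 426 lower, with a median of 0.69. R6/2 libraries are shared with the comparison with wild type mice.

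Since the counts of long transcripts are larger, levels of different genes were compared per kilobase of exon. The length was that of all exons of a gene merged, and the order of the genes depends on it. For Aldoa it was 2754 bases and for Ldha 2982, whereas their transcripts aligned to the genome had 1549 and 1766. For Pygm it was 3218 beside 2874 and for Pfkm 3051 beside 2880. By transcript length Aldoa and Ldha would stand higher beside Pygm and Pfkm. In untreated wild type muscle Aldoa led with 6566 ± 363 CPM per kb (SD, n = 4). Eno3 at 4021 ± 328 and Pygm at 3976 ± 70.0 did not differ beyond their spread. Pfkm followed at 1174 ± 62.4. Ldha at 903 ± 161, Pkm at 880 ± 59.1 and Pgam2 at 822 ± 57.6 lay within each other's spread. Slc2a4 was at 392 ± 23.8, and Gys1 at 185 ± 20.3 and Hk2 at 151 ± 41.2 did not differ beyond their spread. By merged exon length Pygm at 1744 ± 262 and Aldoa at 1692 ± 277 were no longer apart in untreated R6/2 muscle. Pkm at 584 ± 75.1 stood above Pfkm at 429 ± 72.5 there. Gys1 at 168 ± 31.2 and Slc2a4 at 166 ± 17.9 were level there, and Hk2 at 55.4 ± 3.97 remained the lowest.

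Across all 24 mice the levels of most members were correlated. Among Pfkm, Aldoa, Pgam2, Eno3, Pkm, Ldha and Pygm, pairs kept Pearson's r from 0.41 to 0.96 after the group means were taken out. Without R6/2 libraries these pairs ran from 0.29 to 0.88. Pairs of Hk2 with another member ran from -0.28 to 0.48 after the group means were taken out. Over the 24 libraries Pearson's r between a member's log2 level and the mean standardized profile of the 10 members was 0.94 to 0.98 for 8 members, 0.86 for Hk2 and 0.22 for Gys1. The libraries share their genotype, and the profile contains the gene itself. Aldoa and Pygm had r = 0.99 over all libraries, 0.87 after the group means were taken out and 0.88 without R6/2 libraries. Hk2 and Aldoa had r = 0.82 over all libraries, 0.08 after the group means were taken out and -0.46 without R6/2 libraries. Slc2a4 and Gys1 had r = 0.24 over all libraries but 0.86 without R6/2 libraries. Slc2a4 and Pkm had r = 0.88 over all libraries, 0.04 after the group means were taken out and -0.01 without R6/2 libraries. Outside the members and the pathway lists the genes most like the mean profile were Adssl1, Ckm, Acta1, Myoz1, Ldb3, Mylk2, Ecsit and Mrpl42, with r from 0.99 to 0.97. Ckm encodes the muscle creatine kinase and Acta1 the skeletal muscle actin. Their log2 fold changes in untreated R6/2 mice were -2.03 and -2.61 (edgeR adjusted p = 9.4e-07 and 6.7e-07).

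The start regions of these genes are shown because 9 of the members were called lower in untreated R6/2 mice and Gys1 was not. Promoter sequence was taken from RefSeq on the GRCm38.p6 build, since the table used here is on that build and not on mm9, and 9 members were found in it. The 100 bases before the start are printed for the 5 members with a single start in the table, 5′ to 3′ on the gene's strand, with matches to the motifs named below in capitals.
Hk2: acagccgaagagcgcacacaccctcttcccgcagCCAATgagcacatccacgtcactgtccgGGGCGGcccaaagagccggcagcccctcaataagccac
Pgam2: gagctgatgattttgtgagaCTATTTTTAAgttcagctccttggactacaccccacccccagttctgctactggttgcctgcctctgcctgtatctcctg
Eno3: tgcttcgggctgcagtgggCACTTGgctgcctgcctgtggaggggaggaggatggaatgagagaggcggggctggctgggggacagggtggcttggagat
Pygm: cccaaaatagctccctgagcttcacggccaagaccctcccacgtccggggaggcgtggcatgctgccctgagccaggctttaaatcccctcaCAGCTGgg
Gys1: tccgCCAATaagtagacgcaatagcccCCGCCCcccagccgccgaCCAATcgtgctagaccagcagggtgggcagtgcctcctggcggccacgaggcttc
These stretches are chr6:82774455-82774554 (minus), chr11:5803797-5803896 (minus), chr11:70657076-70657175 (plus), chr19:6384308-6384407 (plus) and chr7:45434739-45434838 (plus) of GRCm38.p6.

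Motifs were searched on both strands in the 250 bases before the start. A member was counted if any of its starts had the motif, whereas the shares are of single promoters. Pfkm had 4 starts, Aldoa 3, and Pkm and Ldha 2 each, which favours the members in the counts below. The E-box CANNTG, the letters that myogenic factors and many others bind, was found in 8 of the 9 members and in 66.2% of 32851 promoters. The MEF2 motif was found in Pgam2 (the capitals CTATTTTTAA above) and in 2.9% of all promoters. CCAAT was found in 6 members and 33.8% of promoters, and GGGCGG or its complement in 5 members and 32.7%. TATAAA was found in 0 members and 12.4% of promoters. GAANNTTC, the core of the element that HSF1 binds, was found in 0 members and 6.7% of promoters. These counts describe letters in a window and not bound sites.

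Other genes of glycolysis, fixed as a list, were described by counts. In untreated R6/2 against wild type mice 25 of 27 were tested, 13 were called lower and 1 higher, and the list's median was -0.66 on the log2 scale. Gpd1, which links glycolysis to lipid synthesis and to the NADH shuttle, stood at -1.93 (SE 0.22, edgeR adjusted p = 8.8e-06). Tpi1, triose phosphate isomerase, stood at -1.42, Pfkfb1 at -1.29 and Gpd2 at -1.19. Pfkfb3, which makes the activator of phosphofructokinase, was at -1.53 (edgeR adjusted p = 0.028), a call lost without wild type control replicate 1, wild type vehicle replicate 1, R6/2 control replicate 1 or R6/2 vehicle replicate 1. Hk1, the hexokinase of most other tissues, was the gene called higher, from 9.11 ± 1.40 to 13.6 ± 1.44 CPM (SD, n = 4; log2 fold change 0.58, edgeR adjusted p = 0.0033). With library size only, 7 genes of this list were lower and 4 higher. Among all 13754 tested genes 2119 were called lower and 2075 higher with TMM, and 421 lower and 8455 higher with library size only.

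Of the other genes of glycogen metabolism 22 of 24 were tested, with 12 called lower, 1 higher and a median of -0.63. Pgm1, phosphoglucomutase, fell by 1.82 on the log2 scale (edgeR adjusted p = 4.3e-07) and Phka1, the muscle regulatory subunit of phosphorylase kinase, by 1.28 (edgeR adjusted p = 4.2e-06). Ppp1r3c, which targets a phosphatase to glycogen, stood at -2.07 (SE 0.32, edgeR adjusted p = 0.00013). Pygl and Ppp1r3b, both better known from liver, had log2 fold changes of -2.57 and -2.44 with SE of 0.88 and 0.80. Their calls were lost without wild type control replicate 1, wild type vehicle replicate 2, either R6/2 control mouse or R6/2 vehicle replicate 2, and that of Pygl also without R6/2 vehicle replicate 1. Ppp1r3d was the gene called higher, at 1.02 (edgeR adjusted p = 0.0078). With library size only, 7 were lower and 9 higher, beside 421 lower and 8455 higher of all 13754 tested genes. With TMM 2119 of all tested genes were called lower and 2075 higher.

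Of 20 genes of sugar and lactate transport and pyruvate use, 10 were called lower and 4 higher. Slc16a3, the lactate exporter MCT4, stood at -1.87 (SE 0.16, edgeR adjusted p = 5.4e-07), and the glucose transporter Slc2a12 at -1.29. The kinases that switch off pyruvate dehydrogenase differed, with Pdk4 at 1.38 (edgeR adjusted p = 0.0022), Pdk3 at 1.31 (edgeR adjusted p = 0.00057) and Pdk2 at -0.64 (edgeR adjusted p = 0.00026; named after its value was seen). Slc2a3 was at 1.07 (edgeR adjusted p = 0.011), a call lost without wild type control replicate 2, and Tbc1d4 at 0.56. With library size only, 3 were lower and 7 higher, beside 421 lower and 8455 higher of all 13754 tested genes. With TMM 2119 of all tested genes were called lower and 2075 higher. In vehicle mice alone Pdk4 was at 0.10 and Slc2a3 at 0.14 (edgeR adjusted p = 0.9 and 0.84).

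Among 18 genes of the TCA cycle 15 were called lower and 0 higher, with a median of -0.61 and values from -1.001 (Idh3b) to -0.06. Sdha and Sdhb, subunits of succinate dehydrogenase, both stood at -0.94, and Idh3a and Dlst at -0.81. With library size only, 3 were lower and 6 higher, beside 421 lower and 8455 higher of all 13754 tested genes. With TMM 2119 of all tested genes were called lower and 2075 higher. The members' median of -1.43 was thus set beside -0.61 for these genes, without a test of the difference.

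Genes of fast fibres, which rely most on glycolysis, fell with the members. All 12 were called lower, from -2.40 (Myl1) to -1.09, and 12 were also called lower with library size only. Parvalbumin, Pvalb, stood at -2.32, the fast myosin Myh4 at -2.11, Mybpc2 at -2.08 and Casq1 at -2.03. In a list of 11 genes for slow or oxidative fibres 9 had negative log2 fold changes. The list's median was -0.695 with TMM and -0.098 with library size only. Of the 11 genes 2 were called lower and 1 higher, and with library size only 1 was lower and 2 higher. With TMM these were Mb, myoglobin, at -2.16, Myh2, the myosin of fast oxidative fibres, at -1.15 and Casq2 at 1.44, and the call of Myh2 was lost without R6/2 control replicate 1. Among 8 genes of immature or denervated fibres 3 were called higher and 0 lower, and 5 were called higher with library size only. Of all 13754 tested genes 2075 were called higher with TMM and 8455 with library size only, and 2119 and 421 were called lower. By sign alone 5 genes of the list were higher and 3 lower with TMM. Myh3 went from 33.8 ± 16.5 to 10.6 ± 7.64 CPM (SD, n = 4) and was not called. Neither was Myh8, at 70.8 ± 40.9 and 23.2 ± 21.7 CPM. These 2 myosins were named after their values were seen. Runx1 stood at 2.39 and Chrna1, an acetylcholine receptor subunit, at 1.87 (edgeR adjusted p = 2.4e-05 and 3.8e-07). Myog was at 1.08 (edgeR adjusted p = 0.036), and its call was lost whichever mouse was left out, R6/2 vehicle replicate 2 excepted.

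**Figure D4:**
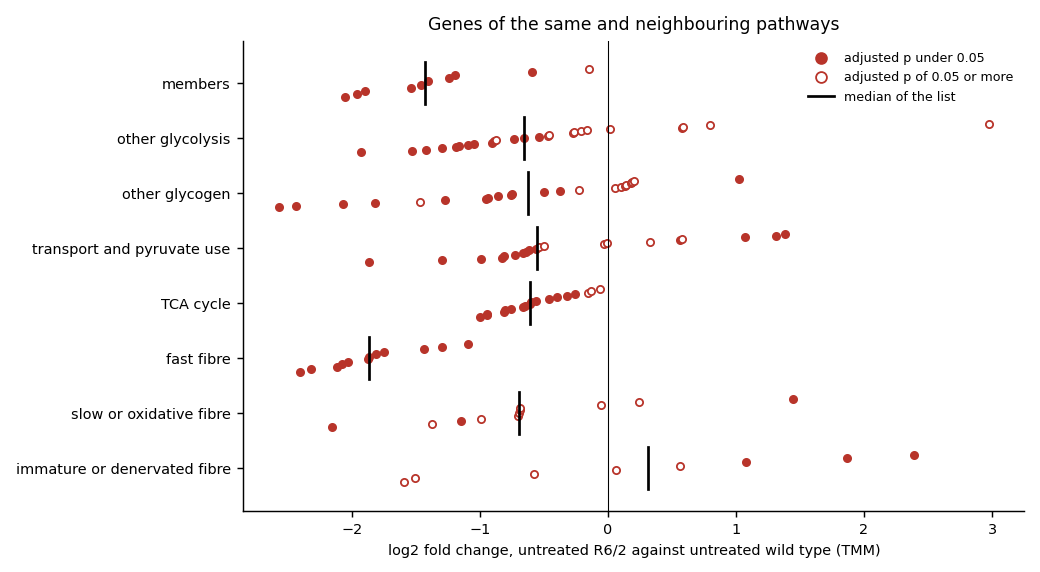
Log2 fold change (x axis, TMM scaling) in untreated R6/2 against wild type mice of each tested gene of the members and of 7 lists (y axis), filled where the adjusted p was below 0.05, with the list's median as a line. The fast fibre list (median -1.87) and the members (median -1.43) lie furthest left, and with library size only the median of all tested genes moves from 0.05 to 0.66.

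Markers of cell types were compared between untreated R6/2 and wild type mice, and their part in the members' values was not tested. Among all tested genes 15.4% were called lower, and 2075 of 13754 higher. Summed levels below are ranges over all 8 mice of a genotype, treated mice included. Of the skeletal muscle markers 9 of 10 were called lower, with a summed level of 204803 to 254136 CPM in wild type and 50594 to 96762 CPM in R6/2 mice. Of the adipocyte markers 3 of 7 were called lower, with 82.9 to 819 CPM in wild type and 71.4 to 180 CPM in R6/2 mice. 1 marker each was called higher among 6 tested of macrophages and leukocytes (summed 35.3 to 82.5 CPM in wild type and 41.6 to 74.3 CPM in R6/2 mice), 5 of fibroblasts (741 to 1236 and 712 to 1049 CPM) and 2 of satellite cells (4.18 to 7.53 and 7.21 to 11.6 CPM). Nothing is read from these single calls, and the summed levels of each of these sets overlapped between the genotypes. Of 6 endothelial, 4 smooth muscle, 3 erythroid and 3 nerve markers tested, 0 were called. No marker found in the table was at 0 in a whole genotype.

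Heat shock did not change any member past the threshold. In wild type mice 0 of the 10 members and 2.06% of all tested genes were called. Their median log2 fold change was 0.14 (0.0053 with library size only), with a range from -0.04 (Ldha) to 0.30 (Gys1). Gys1 was at 743 and 921 CPM in controls and at 1021 and 1025 CPM after HS. Both HS mice lay above both controls, with an unadjusted p of 0.046 and an edgeR adjusted p of 0.4, and 1 of the 10 members had an unadjusted p below 0.05. The 95% interval of the change of Aldoa ran from -0.23 to 0.53 on the log2 scale.

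In R6/2 mice 0 members and 0.0436% of all tested genes were called after HS. All 10 members had positive log2 fold changes with TMM, with a median of 0.26, and 3 had an unadjusted p below 0.05. With library size only the median was 0.15, Pgam2 was at -0.02, and 1 member had an unadjusted edgeR p below 0.05. Hk2 was at 351 and 341 CPM in controls and at 437 and 541 CPM after HS, a log2 fold change of 0.50 (SE 0.17, edgeR adjusted p = 0.39). Slc2a4 was at 477 and 522 CPM in controls and at 552 and 690 CPM after HS, at 0.31 (SE 0.14, edgeR adjusted p = 0.55). Ldha was at 572 and 1064 CPM in controls and at 1284 and 1104 CPM after HS, at 0.55 (SE 0.23, edgeR adjusted p = 0.55). In each of these genes both HS mice lay above both controls. In Hsf1-/- mice 0 members and 0.00727% of all tested genes were called, the median was 0.03 (-0.018 with library size only), and 0 members had an unadjusted p below 0.05. The response to HS did not differ past the threshold between R6/2 and wild type mice for any member (0.0727% of all tested genes called), nor between Hsf1-/- and wild type mice (0.16%). For Ldha the difference between R6/2 and wild type mice was 0.58 (SE 0.33, edgeR adjusted p = 0.99).

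HSP990 likewise left all members short of the threshold. In wild type mice 0 of 10 members and 1.85% of all tested genes were called. The median of the members was -0.11 (-0.059 with library size only), with 3 members at an unadjusted p below 0.05 with TMM. Hk2 was at 1161 and 1053 CPM with vehicle and at 1766 and 1160 CPM with HSP990, so that 1 treated mouse lay far above and the other level with the vehicle mice. Its log2 fold change was 0.40 (SE 0.17, edgeR adjusted p = 0.32). Slc2a4 was at 1098 and 1199 CPM with vehicle and at 936 and 897 CPM with HSP990, at -0.32 (SE 0.14, edgeR adjusted p = 0.3). Gys1 was at 959 and 923 CPM with vehicle and at 776 and 741 CPM with HSP990, at -0.31 (SE 0.14, edgeR adjusted p = 0.34). For Slc2a4 and Gys1 both treated mice lay below both vehicle mice.

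In R6/2 mice 0 members and 1.43% of all tested genes were called after HSP990. The median of the members was 0.26 (0.19 with library size only), and 4 had an unadjusted p below 0.05. Pgam2 was at 129 and 149 CPM with vehicle and at 258 and 164 CPM with HSP990, a log2 fold change of 0.60 (SE 0.19, edgeR adjusted p = 0.19). Without R6/2 HSP990 replicate 2, the lower of the treated mice, it was 0.89 with an adjusted p of 0.043, so that 1 member was called. Ldha was at 532 and 721 CPM with vehicle and at 1121 and 701 CPM with HSP990, at 0.54 (SE 0.23, edgeR adjusted p = 0.46). Its groups overlapped. Pfkm stood at 0.36 and Eno3 at 0.38 (edgeR adjusted p = 0.45 and 0.53). Hk2 was at -0.10 and Slc2a4 at -0.21.

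In Hsf1-/- mice 0 members and 0.218% of all tested genes were called after HSP990, with a median of -0.21 and 2 members at an unadjusted p below 0.05. With library size only the median was -0.056, and 1 member had an unadjusted edgeR p below 0.05. Pygm was at 14487 and 14195 CPM with vehicle and at 10533 and 10801 CPM with HSP990, at -0.43 (SE 0.16, edgeR adjusted p = 0.39). Aldoa was at 19915 and 22110 CPM with vehicle and at 14575 and 17522 CPM with HSP990, at -0.39 (SE 0.18, edgeR adjusted p = 0.53). In both genes the treated mice lay below the vehicle mice. The response to HSP990 did not differ past the threshold between R6/2 and wild type mice for any gene (0% of all tested genes called by edgeR, with 981 genes and 2 members at an unadjusted p below 0.05), nor for any member between Hsf1-/- and wild type mice (0.422%). For Pgam2 the difference between R6/2 and wild type mice was 0.72 (SE 0.27, unadjusted p = 0.016, edgeR adjusted p = 0.58). By sign 9 of the 10 members had a positive difference, and Hk2 went the other way at -0.50 (SE 0.24, edgeR adjusted p = 0.71). The members' median was 0.43, beside -0.0013 for all tested genes, and 0.32 beside -0.11 with library size only.

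**Figure D5:**
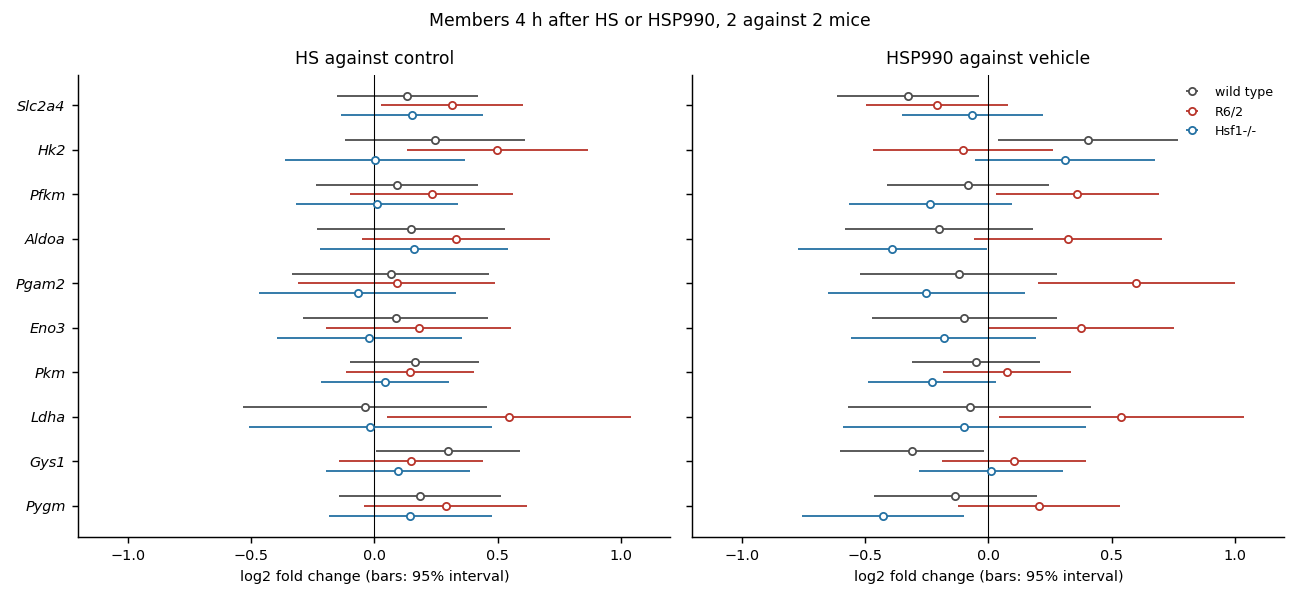
Log2 fold change (x axis) with its 95% interval of each member (y axis) 4 h after HS against control (left) or HSP990 against vehicle (right), in 2 against 2 mice of each genotype (colours). No member passed the adjusted threshold, and points range from -0.43 (Pygm, Hsf1-/- mice, HSP990) to 0.60 (Pgam2, R6/2 mice, HSP990).

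Among the list genes 2 rose in wild type mice after HS. The 7 lists held 25, 22, 20, 18, 12, 11 and 8 tested genes. Of all 13754 tested genes 2.06% were called, 219 of them higher, and nothing is read from the count of list genes. Pdk4 was at 278 and 378 CPM in controls and at 3267 and 1892 CPM after HS, a log2 fold change of 2.98 (SE 0.45, edgeR adjusted p = 0.0017). Ppp1r3c was at 464 and 787 CPM in controls and at 3387 and 3000 CPM after HS, at 2.35 (SE 0.45, edgeR adjusted p = 0.01). The call of Pdk4 was lost without wild type control replicate 1 (adjusted p = 0.077), and that of Ppp1r3c without either control mouse or without wild type HS replicate 1 (0.055 to 0.19). The wild type controls were the lowest of all groups in Pdk4. Untreated R6/2 mice had 1033 to 3133 CPM, Hsf1-/- controls 2478 and 2383 CPM and wild type vehicle mice 2155 and 1930 CPM.

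After HSP990, 3 list genes changed in wild type mice, beside 1.85% of all tested genes, and nothing is read from this count either. Stbd1, which binds glycogen, was at 89.5 and 73.6 CPM with vehicle and at 168 and 162 CPM with HSP990, at 1.02 (SE 0.17, edgeR adjusted p = 0.004). Pfkfb1, the muscle and liver enzyme that sets the level of fructose 2,6-bisphosphate, was at -0.92 (SE 0.20, edgeR adjusted p = 0.029) and Ppp1r3c at -1.79 (SE 0.44, edgeR adjusted p = 0.049). All 3 calls were lost without wild type vehicle replicate 2, and those of Pfkfb1 and Ppp1r3c also without either HSP990 mouse. In R6/2 and Hsf1-/- mice 0 list genes were called after either treatment. Of all tested genes 0.0436% and 0.00727% were called there after HS, and 1.43% and 0.218% after HSP990. A call in wild type mice alone is no difference, and no list gene's response differed past the threshold from that in wild type mice. For Pdk4 after HS the difference from wild type was -2.115 in R6/2 and -2.426 in Hsf1-/- mice (edgeR adjusted p = 0.59 and 0.3). Ppp1r3c was at 1.38 in R6/2 mice after HS (SE 0.44, edgeR adjusted p = 0.32).

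Untreated Hsf1-/- mice did not differ from untreated wild type mice in any member past the threshold (0.974% of all tested genes called). The median of the members was -0.02, with 3 members at an unadjusted p below 0.05. Gys1 was at 663, 803, 666 and 780 CPM in Hsf1-/- mice, at -0.28 against wild type (SE 0.10, edgeR adjusted p = 0.2). Slc2a4 was at 953, 911, 824 and 1026 CPM, at -0.26 (SE 0.10, edgeR adjusted p = 0.23). Hk2 was at 735, 775, 551 and 755 CPM, at -0.32 (SE 0.12, edgeR adjusted p = 0.24). Aldoa was at 18647 ± 2875 CPM (SD, n = 4) beside 18084 ± 1000 CPM in wild type mice. Hk2 differed in sign between the experiments, at 0.12 in controls and -0.76 in vehicle mice. In controls of the HS experiment 0 members and 1.93% of all tested genes were called. Pdk4, at 2.89 (SE 0.45, edgeR adjusted p = 0.0069), and Slc2a3, at 2.15 (SE 0.44, edgeR adjusted p = 0.023), were the list genes called there. Pdk4 was also called over both experiments, at 1.34 (edgeR adjusted p = 0.042), a call lost whichever of the 8 mice was left out.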

How the data were processed

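Quadriceps femoris mRNA of 24 mice was sequenced as strand-specific paired reads. The authors mapped reads to mm9 with Bowtie and deposited raw counts per gene, 1 column per mouse; the deposited counts carry no normalization, and the counting program and its annotation are not given in the sources used here. Library totals were 22450177 to 46599238 counts, and 0 columns were left unused. Genes are listed by Entrez Gene identifier, of which 18594 of 18669 were matched to a symbol in RefSeq.

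The 13754 genes that reached 2 counts in 10 or more libraries were tested with edgeR 4.0.16 in R 4.3.3 by its quasi-likelihood F test. TMM factors were used, and the 12 groups were fitted together, which left 12 residual degrees of freedom. Benjamini-Hochberg adjustment covered all tested genes, and a gene was called at an adjusted p below 0.05. SE was taken as the log2 fold change divided by the square root of F. An exact two-sided permutation test of 2 against 2 mice cannot give a p below 0.333, and that of 4 against 4 below 0.0286. Correlations used log2(CPM + 0.5). The 2 mice of a group differed by more than counting error (chi-square divided by its degrees of freedom, 19.4 to 110), so each counts as 1 replicate. That ratio was 54.3 to 110 in R6/2, 24.45 to 33.7 in wild type and 19.4 to 79.1 in Hsf1-/- groups. The p-values rest on 1 estimate of the spread between mice per gene, shared by the 12 groups. They do not measure the spread among R6/2 mice alone. The main design used groups given by GEO's labels.

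The members and lists were chosen with earlier results of these data known. Named genes are all members, up to 5 called genes of each list per comparison with the largest change, the 8 genes most like the mean member profile, and Hsf1. Genes outside this rule are marked. Gene positions are those of GENCODE on mm9, and levels per kilobase use merged exon length. Transcripts of the members and Gapdh were aligned to the genome with minimap2 2.31-r1302 to count near-identical copies. Alternatives were RLE factors, library size only, TMM without members and the 20 highest genes, no filter, filterByExpr, only the groups compared, a replicate block, DESeq2 1.42.0, each experiment alone and leaving out each mouse.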

Additional observations from a re-analysis of the deposited data

How the results depend on the processing

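In untreated R6/2 against wild type mice 9 members were called lower in the main design. The number called was 9 under every alternative, except 10 among vehicle mice of the HSP990 experiment alone, but with library size only these were 8 lower and Gys1 higher, and the call of Pkm was lost. The members' median log2 fold change ranged from -1.63 (that experiment) to -0.83 (library size only). With library size only Pkm was at 0.011 and Gys1 at 0.45, and within the HS experiment Gys1 was at 0.14. After HS, Gys1 in R6/2 against wild type mice was at 0.55 with library size only and between -0.051 and 0.022 when 1 mouse was left out. After HSP990, Pkm was at 0.053 and Gys1 at 0.54 with library size only, and Gys1 lay between -0.057 and 0.0094 when 1 mouse was left out. In these 2 treated comparisons 7 to 9 members were called over all settings, and with library size only 1 of them, Gys1, was higher. In untreated Hsf1-/- against wild type mice Hk2 was at 0.12 within the HS experiment and Pdk4 at -0.21 within the HSP990 experiment. After HSP990 in R6/2 mice 0 to 1 members were called when 1 mouse was left out. In the other treatment, Hsf1-/- and interaction comparisons 0 members were called under every setting run. Of 100 member values with an unadjusted p of 0.05 or more in these comparisons, 47 changed sign under at least 1 alternative and 0 passed the threshold. The cause of these changes was not tested.

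Same-numbered mice are different animals, and their deviations from the group means had correlations from -0.25 to 0.28, so that they share a number only. With the replicate block the number of members called stayed at 9 in untreated R6/2 against wild type mice, and no count of members changed. Pfkfb3 was lost (-1.23, adjusted p = 0.051). With 2 mice per group, small changes after treatment are not resolved, as the width of the intervals shows.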
